A study of Homo sapiens with 72 samples.

Results

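The genes described are the nuclear-encoded subunits of the 5 oxidative phosphorylation complexes, with the complex I assembly factors named NDUFAF and the ATP synthase inhibitor ATP5IF1. They were chosen by gene symbol and not by any measured value: 96 symbols matched in the gene tables, after 73 pseudogene or hyphenated symbols were dropped. Of these 96, 89 had a mean of at least 10 normalised reads in 1 or more tables, out of 61541 Ensembl gene identifiers in each table, and 87 had it in every table. The 89 were 37 complex I subunits, 8 complex I assembly factors, 4 complex II, 9 complex III, 13 complex IV and 17 complex V genes, and the inhibitor. The 7 genes below that level in every table were ATP5MGL, NDUFA4L2 and the tissue-restricted complex IV isoforms COX4I2, COX6A2, COX7A1, COX7B2 and COX8C. ATP5MGL had the highest mean of the 7, at 9.51 normalised reads, and COX6A2 and COX7B2 were listed at 0.

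The study examined RNA bound by G3BP1, the RNA-binding protein that nucleates stress granules, and gene expression in cells without G3BP1 and its paralog G3BP2. Bound RNA was measured in the human embryonic kidney line FlpIn 293 Trex, in which stable FLAG-G3BP1 was induced with tetracycline at 1 ug/mL for 24 h. RNA recovered with FLAG-G3BP1 by immunoprecipitation (IP, 3 libraries) was compared with input RNA of the same line (3 libraries). Comparison with input alone, in cells with added G3BP1, limits that experiment as a model of binding. The first expression experiment used U2OS, a human bone osteosarcoma line, in 3 groups of 2 libraries: wild-type cells, G3BP1/2 knockout cells, and knockout cells that received a G3BP1 transgene by Lipofectamine 24 h before (the G3BP1 rescue). The second used the G3BP1/2 knockout cells in 6 groups of 2 libraries: untransfected cells, cells transfected for 24 h with a WT G3BP1 transgene (the WT rescue), and cells transfected with a G3BP1 transgene carrying an NTF2 deletion (the NTF2-deletion rescue). Each of those 3 was taken untreated and after 200 uM sodium arsenite for 2 h. The wild-type and knockout controls were not transfected, so transfection and the transgene cannot be told apart in any rescue. The labels give neither the number of knockout clones nor whether replicates were separate cultures, so p-values measure the spread between these libraries, which may be technical.

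Oxidative phosphorylation passes electrons from NADH (complex I) and succinate (complex II) through complex III and cytochrome c to oxygen at complex IV, and complexes I, III and IV pump protons. Complex V, the ATP synthase, uses the proton gradient to make ATP. Complexes I, III, IV and V combine subunits made in the cytosol from nuclear genes with subunits encoded by mitochondrial DNA, whereas complex II is wholly nuclear-encoded. Promoters of the nuclear genes are known for sites of NRF1, of ETS-family factors such as GABP, of YY1 and of SP1. The NTF2-like domain of G3BP1 mediates its dimerisation and its binding to partner proteins.

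The promoter sequences of 3 members described below, NDUFAF4, SDHB and ATP5F1C, show the kinds of site that were counted over all members. Windows from 250 bases before to 50 after the start were taken from RefSeq (GRCh38.p14), and 75 of the 89 members matched a window by symbol. Below are the 250 bases before the start, 5′ to 3′ on the gene's strand, with every match of a searched motif in capitals. NDUFAF4 (chr6:96897892-96898141, minus strand) holds the ETS core CCGGAAG. SDHB (chr1:17054033-17054282, minus strand) holds an SP1 box in reverse complement and an ETS core. ATP5F1C (chr10:7787927-7788176, plus strand) holds an SP1 box and the NRF1 motif.
NDUFAF4: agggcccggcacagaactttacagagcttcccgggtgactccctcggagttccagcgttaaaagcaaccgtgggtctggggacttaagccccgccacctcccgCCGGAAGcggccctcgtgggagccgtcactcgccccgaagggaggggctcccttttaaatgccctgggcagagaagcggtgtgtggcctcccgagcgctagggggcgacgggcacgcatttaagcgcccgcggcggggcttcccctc
SDHB: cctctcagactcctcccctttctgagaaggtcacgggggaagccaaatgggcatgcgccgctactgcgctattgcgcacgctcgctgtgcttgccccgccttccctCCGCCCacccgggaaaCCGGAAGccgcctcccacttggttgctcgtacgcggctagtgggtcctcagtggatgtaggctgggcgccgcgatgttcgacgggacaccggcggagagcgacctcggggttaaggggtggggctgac
ATP5F1C: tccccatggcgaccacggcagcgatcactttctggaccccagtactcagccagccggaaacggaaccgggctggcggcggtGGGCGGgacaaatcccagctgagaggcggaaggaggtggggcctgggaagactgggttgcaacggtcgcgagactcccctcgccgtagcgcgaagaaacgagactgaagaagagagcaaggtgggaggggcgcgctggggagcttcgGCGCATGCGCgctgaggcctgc
Each motif was searched on both strands, and matches of different motifs overlapped in 100 of the 27305 windows of the table. The 10-base NRF1 motif, the last run of capitals in ATP5F1C, was in 17 of the 75 member windows (22.7%) and in 6.28% of all windows, any base being allowed at its sixth place. The ETS core CCGGAAG was in 21 (28%) against 10.7%, the 10-base YY1 motif in 7 (9.33%) against 1.28%, and the SP1 box GGGCGG in 44 (58.7%) against 44.6%. Among the 29 windows of members that rose in both rescues of the second experiment, 6 (20.7%) held the NRF1 motif, 7 (24.1%) the ETS core, 6 (20.7%) the YY1 motif and 18 (62.1%) the SP1 box. A match is a description of the letters only.

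Normalised reads per library, used below for the U2OS cells, are reads divided by a size factor; whole reads were solved from the mean normalised reads that the authors' deposited tables give for each gene, and libraries are named in no order. Gene reads came to between 38590157 and 52470072 per library in the first U2OS experiment and between 10793184 and 27755473 in the second. G3BP1 transcripts took 0.0417% and 0.0408% of gene reads in wild-type cells, 0.0273% and 0.0281% in knockout cells and 0.0435% and 0.0437% in the first rescue. They took 0.0238% to 0.0292% in the knockout libraries of the second experiment and 3.83% to 6.22% in its rescues, so the rescues of the second experiment carried far more of the transgene's RNA than that of the first. G3BP2 stayed between 125 and 189 RPM (reads per 1000000 gene reads) in every U2OS library; a transcript that persists does not check a deletion at the protein level. The bone markers SPARC and COL1A1 were abundant in every U2OS library, the osteoblast collagen COL1A2 was at most 0.943 RPM, and PTPRC, the leukocyte marker, at most 0.957. No replicate pair was alike within counting noise (mean squared standardised difference of 1.75 to 4.18 over genes, where 1 is counting noise alone).

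RNAs for the oxidative phosphorylation subunits were recovered with FLAG-G3BP1 above input, across all 5 complexes. In the authors' deposited table, 79 of 88 members were higher in the IP than in input (adjusted p under 0.05 in DESeq2's Wald test, the call used throughout) and 4 were lower, beside 37.1% of all genes called higher and 37.9% called lower. The median log2 fold change of the members was 1.22, against 0.01 for all genes with a mean of at least 10 reads. Of complex I, which takes electrons from NADH, 31 of 37 subunits rose and 3 fell, with a median of 1.29. Its assembly factors had 7 of 8 higher (median 0.93). Complex II had 3 of 4 higher (1.53), complex III 8 of 9 (1.47), complex IV 12 of 12 (1.05) and complex V 17 of 17 (1.37). The Wald statistics of this table spread widely over all genes, and once each was divided by that spread (7.07), 0 members were called higher; the counts of the U2OS comparisons below also fell under this stricter reading.

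The highest members in the authors' deposited table were the membrane-arm accessory subunits of complex I NDUFB7, at 2.91 ± 0.16 (log2 fold change with its SE; adjusted p = 2.73e-69), and NDUFB5, at 2.53 ± 0.14, followed by the core subunit NDUFS3 at 2.17 ± 0.14. Named subunits of the other complexes in the same deposited table were SDHB, the iron-sulfur subunit of complex II, at 1.47 ± 0.09, UQCRFS1, the Rieske protein of complex III, at 2.02 ± 0.10, and COX4I1, a regulatory subunit of complex IV, at 2.00 ± 0.12. ATP5F1A and ATP5F1B, the alpha and beta subunits of the catalytic head of complex V, were at 2.10 ± 0.19 and 1.64 ± 0.18 there. The 3 genes ATP5MC1, ATP5MC2 and ATP5MC3, which encode the same mature subunit c, were at 1.20, 1.02 and 1.60 in the deposited table, and the inhibitor ATP5IF1 was at 1.04 ± 0.11. The enriched RNAs thus included catalytic, structural and regulatory subunits, although SDHA, the catalytic subunit of complex II, fell.

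Of the 4 members that fell in the IP, 3 had low levels. In the authors' deposited table NDUFA13 was at -3.13 ± 0.54 with a mean of 23 normalised reads, NDUFV2 at -2.19 ± 0.56 with 16, and SDHA at -1.09 ± 0.25 with 95. NDUFS1, the largest core subunit of complex I, was the exception, at -0.87 ± 0.13 in the authors' deposited table with a mean of 1333 normalised reads. SDHA shares sequence with pseudogene copies and NDUFV2 overlaps another gene, so how reads were assigned makes both values uncertain. NDUFV1, the NADH-binding partner of NDUFV2, was higher, at 0.99 ± 0.15 in the authors' deposited table. Not called were NDUFA7, NDUFA11, NDUFAF6, NDUFA5 and UQCRHL, at -0.47, 0.09, 0.10, 0.15 and 0.40 in the authors' deposited table; UQCRHL is nearly identical to UQCRH, so its reads are uncertain as well.

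**Figure D1:**
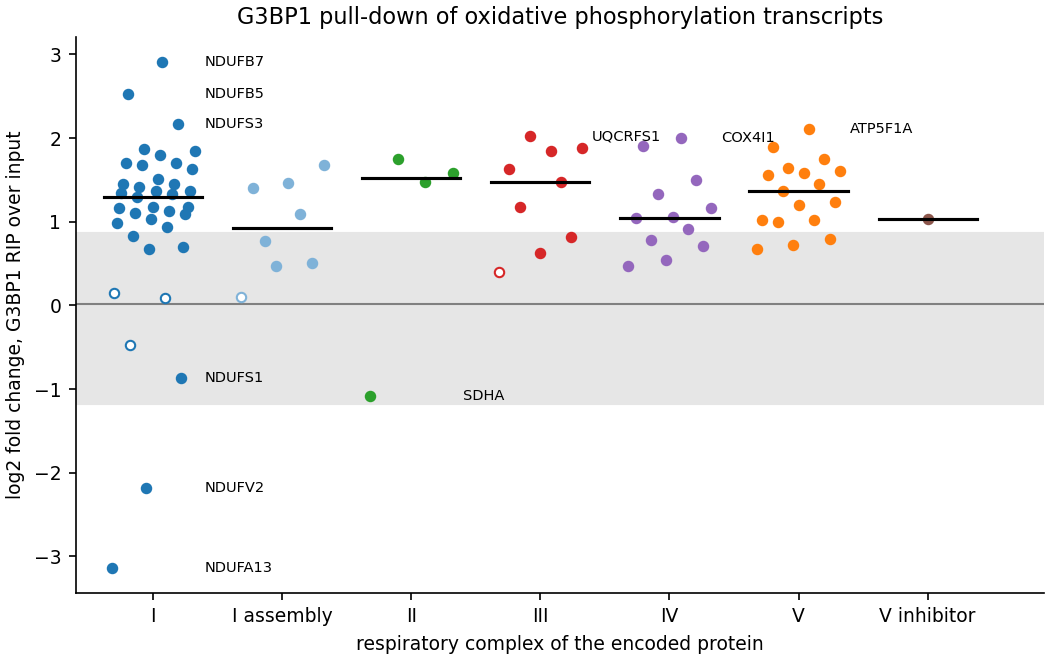
Log2 fold change of each member in FLAG-G3BP1 IP over input (y axis, from the authors' deposited table) by complex (x axis). Filled points were called at adjusted p under 0.05, black bars are the medians of each complex and the grey band spans the quartiles of all genes (-1.18 to 0.87). Every complex has its median above that band, and the 4 members that fell are in complexes I and II.

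Gene length moved with enrichment over all genes but not among the members. The median genomic span was 10.55 kb for the members and 31.08 kb for all genes, and over genes the span and the deposited log2 fold change had a Spearman rho of -0.44. Among the members that rho was -0.0055 (a description across genes of 1 set of libraries, with no test). Of genes no longer than the members' median span, 62% were higher in the authors' deposited table, against 43 of 44 members (97.7%). Of longer genes, 32.8% were higher in that deposited table, against 36 of 44 members (81.8%). In both length classes the members' share lay above that of all genes; the part that length plays was not tested. The 13 mitochondrially encoded subunits, which are transcribed and translated inside the mitochondrion, had 0 called higher and 1 lower in the authors' deposited table, with a median of -0.49. Other nuclear genes of metabolism were also recovered above input, in the authors' deposited table: 12 of 17 glycolytic enzymes rose and 3 fell (median 1.5), as did 14 and 2 of 16 subunits of the mitochondrial import machinery (1.26), 12 and 1 of 13 enzymes of the TCA cycle (0.75) and 10 and 0 of 12 complex IV assembly factors (0.72). Of 11 regulators of mitochondrial biogenesis, 4 rose and 6 fell there (-0.54).

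Knockout cells held nuclear subunits at both higher and lower levels than wild-type cells, and only the share lower was above that of all genes. Against wild-type U2OS cells, 18 of 89 members were higher and 30 lower in knockout cells in the authors' deposited table, beside 22.2% and 23.7% of all genes, with a median of -0.03. Complex I was split, with 11 higher and 10 lower of 37, while complex V had 3 higher and 7 lower of 17, complex III had 0 and 4 of 9, and the assembly factors 1 and 4 of 8. In complexes III and V and the assembly factors more members fell than rose.

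Genes of the stalks and the membrane part of ATP synthase were among the members that fell furthest. ATP5F1C, the gamma subunit of the central stalk, was at 4608 and 4479.7 normalised reads in the wild-type libraries, 2425 and 2603 in the knockout and 4462 and 4446 in the rescue. The knockout libraries thus lay below all 4 others, and the authors' deposited table gave -0.85 ± 0.07 against wild type on the log2 scale (adjusted p = 1.01e-33). ATP5PD, subunit d of the peripheral stalk, was at 4098 and 3996 in wild type, 2162 and 2087 in the knockout and 3558 and 3750.3 in the rescue. ATP5MPL, a small membrane subunit, was at 2339 and 2308, 1152 and 1047, and 2277 and 2296 in the same order. For both genes the knockout pair did not overlap the other groups, and the authors' deposited table gave -0.93 ± 0.07 for ATP5PD and -1.07 ± 0.09 for ATP5MPL against wild type. Over all genes, both knockout libraries lay under both wild-type libraries for 38.5%. NDUFB1 of complex I was close to ATP5F1C, at -0.85 ± 0.12, and COX6B2, at -1.01 ± 0.43, was not called in the authors' deposited table. UQCRFS1 of complex III followed the same order, at 6171 and 6174, 3709.8 and 3681, and 6665 and 7010.3 normalised reads, with -0.74 ± 0.06 in the authors' deposited table.

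The alpha and beta subunits of the ATP synthase head went in opposite directions. ATP5F1B, the beta subunit, fell from 21961 and 20849 normalised reads in wild type to 15605 and 15157 in the knockout, a log2 fold change of -0.48 ± 0.05 in the authors' deposited table. ATP5F1A, the alpha subunit, rose from 13891 and 13226 to 20500.1 and 19889.9, or 0.57 ± 0.05 in the authors' deposited table. Among complex I genes, NDUFB4 rose from 2626 and 2686 to 4565 and 4364 normalised reads, and NDUFAB1, the mitochondrial acyl carrier protein, from 1449.6 and 1437 to 2328 and 2325. These were 0.74 ± 0.07 and 0.68 ± 0.08 in the authors' deposited table, and NDUFV2, at 1.10 ± 0.19, was the highest of the members. The uncertainty of NDUFV2 and SDHA reads given for the IP holds for every comparison in this report. Of the other core subunits, NDUFS1 rose by 0.38 ± 0.06, NDUFV1 was at -0.26 ± 0.06 and SDHB at -0.32 ± 0.08, and UQCRC1 at -0.15 ± 0.06, all called in the authors' deposited table. COX5A was also called there, at 0.27 ± 0.07, whereas SDHA, at -0.01 ± 0.15, and COX4I1, at -0.10 ± 0.06, were not.

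Against the G3BP1 rescue, the knockout's lower values were shared by most members. Of 89 members, 61 were lower and 2 higher in the knockout than in the rescue in the authors' deposited table, beside 23.7% and 17.8% of all genes, and the median was -0.31 against 0.00 for all genes. Both knockout libraries were under both rescue libraries for 69 of the 89 members, beside 37.9% of all genes. Members called lower made up 24 of 37 complex I subunits, 6 of 8 assembly factors, 3 of 4 in complex II, 7 of 9 in complex III, 7 of 13 in complex IV, 13 of 17 in complex V, and the inhibitor. Complex II had the lowest median (-0.53) and complex IV the highest (-0.14) in the authors' deposited table.

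SDHB, the iron-sulfur subunit of complex II, was at 1751 and 1888 normalised reads in the knockout and 2914 and 2801 in the rescue, with wild type between them at 2269 and 2269.6. SDHD, a membrane anchor of complex II, was at 2227 and 2244 in the knockout, 3616 and 3366 in the rescue and 2439.5 and 2800.5 in wild type. For these genes the rescue therefore stood above wild type as well as above the knockout. The authors' deposited table gave -0.66 ± 0.08 for SDHB and -0.65 ± 0.07 for SDHD, knockout over rescue. The lowest members in the same deposited table were ATP5MPL at -1.05 ± 0.08, UQCRFS1 at -0.89 ± 0.06 and ATP5F1C at -0.83 ± 0.06. The 2 members that were higher in the knockout were NDUFV2, at 0.93 ± 0.17, and NDUFB4, at 0.22 ± 0.06, in the authors' deposited table.

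The rescue did not return the members to their wild-type levels but exceeded them for many. Of 89 members, 54 were lower and 2 higher in wild-type cells than in the rescue in the authors' deposited table, beside 22.5% and 16.8% of all genes (median -0.24). Wild-type cells were untransfected, and this comparison shares its rescue libraries with the one above. NDUFAF4, an assembly factor of complex I, was at 544 and 648 normalised reads in wild type and 1046 and 985 in the rescue. It did not differ between wild type and knockout beyond the replicates, since the knockout was at 569.6 and 629.6. NDUFAF2, another assembly factor, was at 1259 and 1072 in wild type, 1631 and 1554 in the knockout and 2109 and 2123 in the rescue. Wild type over rescue was -0.76 ± 0.12 for NDUFAF4, -0.86 ± 0.09 for NDUFAF2 and -0.87 ± 0.08 for NDUFAB1 in the authors' deposited table. The 2 members higher in wild type there were NDUFA3, an accessory subunit, at 0.48 ± 0.11, and NDUFAF7, an assembly factor of complex I, at 0.27 ± 0.09.

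**Figure D2:**
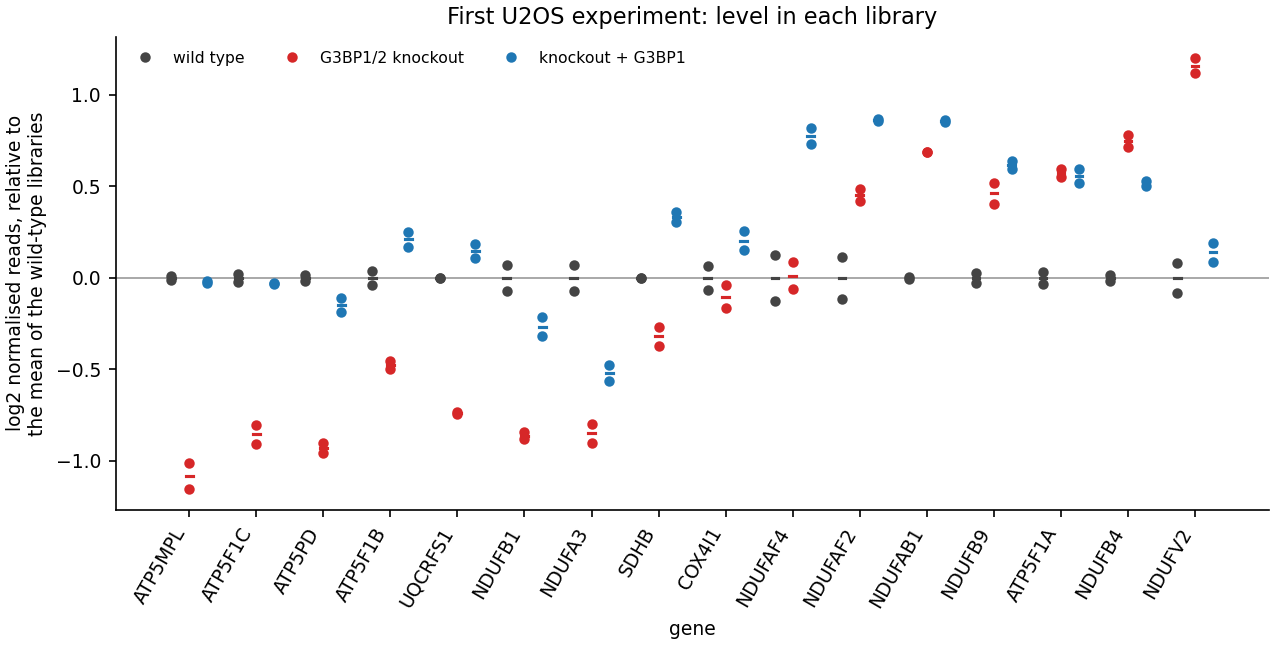
Normalised reads of 16 members in each of the 6 libraries of the first U2OS experiment, as log2 relative to the wild-type mean (y axis); each point is 1 library. ATP5F1C, ATP5PD, ATP5MPL and UQCRFS1 are lowest in the knockout, ATP5F1A and NDUFAB1 are above wild type in both knockout and rescue, and NDUFAF4 is raised in the rescue alone.

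In the second experiment the same direction was seen when G3BP1 was put back into untreated knockout cells. With the WT rescue, 35 of 87 members were higher and 3 lower than in the knockout in the authors' deposited table, beside 28.8% and 23.0% of all genes. The NTF2-deletion rescue had 42 higher and 2 lower of 87 in the authors' deposited table, beside 28.5% and 22.8%. Member medians were 0.22 and 0.31, against 0.03 for all genes in each. Genes with a mean of at least 100 normalised reads had medians of 0.18 and 0.17, nearer to those of the members. The counts of members called depend on the scale: on RPM, fold changes were lower by 0.243 (WT) and 0.266 (NTF2 deletion) on the log2 scale. G3BP1 itself took up to 5.32% of gene reads in these rescues, and its part in this shift was not tested. On RPM, limma called 25 members higher and 24 lower for the WT rescue, beside 26.0% and 43.0% of all genes. For the NTF2-deletion rescue it called 32 and 19, beside 24.9% and 44.4%. Medians there were -0.02 and 0.05 for the members and -0.17 and -0.19 for all genes. The excess of rises over falls in the WT rescue was therefore seen on the authors' scaling and not on RPM, while on both scalings the members' median lay above that of all genes. The genes below are those that rose or fell on both scales unless stated.

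The members that rose furthest were NDUFAF4 and NDUFAF2, assembly factors of complex I, and SDHB of complex II. NDUFAF4 was at 130.3 and 129 normalised reads in the knockout, 385 and 378 in the WT rescue and 380.1 and 353 in the NTF2-deletion rescue. The authors' deposited tables gave 1.53 ± 0.20 (adjusted p = 5.77e-13) and 1.48 ± 0.21 for NDUFAF4, and limma on RPM 1.25 and 1.17. NDUFAF2 was at 394 and 382, 899 and 957, and 902 and 1006 normalised reads in the same order. SDHB was at 423 and 417, 821 and 816, and 879 and 902. For each of these 3 genes all 4 rescue libraries lay above both knockout libraries by far more than the replicates differed. NDUFAF2 rose by 1.26 ± 0.13 and 1.30 ± 0.13, and SDHB by 0.97 ± 0.13 and 1.09 ± 0.13, in the WT and NTF2-deletion rescues of the authors' deposited tables. On RPM, limma gave 1.01 and 1.03 for NDUFAF2 and 0.72 and 0.82 for SDHB.

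By complex, the deposited calls for the WT rescue were 13 higher and 2 lower of 36 in complex I, 5 of 8 assembly factors higher, 3 of 4 in complex II, 3 of 9 in complex III, 3 of 12 in complex IV and 8 of 17 in complex V. For the NTF2-deletion rescue the authors' deposited table had 14 higher and 1 lower in complex I, 5, 3, 4 and 3 higher in the next 4 groups, and 13 of 17 in complex V. In complex V, ATP5F1B was at 3906 and 3926 normalised reads in the knockout, 6149 and 5997 in the WT rescue and 6625 and 6141 in the NTF2-deletion rescue. Its alpha partner ATP5F1A was at 5283 and 5611, 5539.7 and 5205, and 5949 and 5569, so that the groups overlapped. Per the authors' deposited tables, ATP5F1B was higher by 0.65 ± 0.06 (WT) and 0.73 ± 0.06 (NTF2 deletion), whereas ATP5F1A, at 0.00 ± 0.06 and 0.10 ± 0.06, was not called; limma on RPM had ATP5F1A lower, at -0.24 and -0.16. The peripheral stalk subunit ATP5PB was at 0.79 ± 0.08 and 0.85 ± 0.08 in the authors' deposited tables, and UQCRFS1 of complex III at 0.48 ± 0.10 and 0.62 ± 0.11.

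The members that fell on the authors' scaling were 3 with the WT rescue and 2 with the NTF2-deletion rescue. NDUFB1, a small accessory subunit of complex I, was at 187 and 210.2 normalised reads in the knockout, 94.8 and 132 in the WT rescue and 133 and 108 in the NTF2-deletion rescue. ATP5IF1, which blocks ATP hydrolysis by the synthase, was at 334 and 417 in the knockout, 240.3 and 224 in the WT rescue and 228 and 267 in the NTF2-deletion rescue. Neither gene's rescue libraries overlapped its knockout libraries. Over all genes, both libraries of a rescue lay under both knockout libraries for 40.5% (WT) and 40.2% (NTF2 deletion). The authors' deposited tables gave -0.75 ± 0.26 and -0.66 ± 0.25 for NDUFB1 and -0.65 ± 0.19 and -0.56 ± 0.19 for ATP5IF1. NDUFV2 fell with the WT rescue only, at -0.63 ± 0.26 in the authors' deposited table, and was at -0.38 and not called with the NTF2 deletion, a difference that was not itself called.

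**Figure D3:**
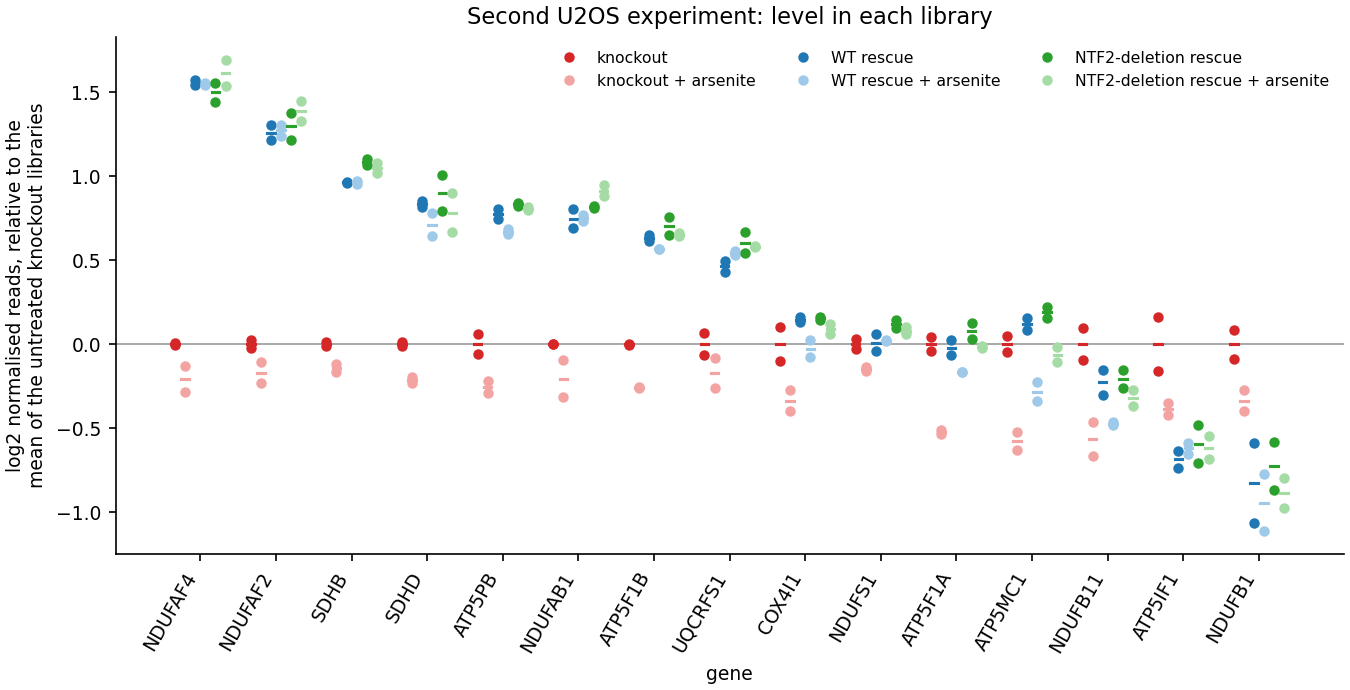
Normalised reads of 15 members in each of the 12 libraries of the second U2OS experiment, as log2 relative to the mean of the untreated knockout (y axis); each point is 1 library. NDUFAF4, NDUFAF2 and SDHB stand above the knockout in all 8 rescue libraries, and NDUFB1 and ATP5IF1 below it.

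Without arsenite, no member was called different between the WT and NTF2-deletion rescues. For these untreated rescues, each against the same knockout libraries, the test of the difference between the deposited fold changes called 0 of 87 members, with 0 at an unadjusted p under 0.05, beside 0.0% of genes called higher and 0.0185% lower. The differences, WT minus NTF2 deletion, ran from -0.30 (ATP5ME) to 0.17 (UQCRHL) with a median standard error of 0.193, and 72 of 87 were below 0. That standard error counts the shared knockout libraries as separate, so it is too large. A direct limma comparison of the untreated rescue libraries on RPM also called 0, beside 0.886% of genes higher and 0.227% lower. With arsenite, limma called 0 members higher and 1 lower in the WT rescue than in the NTF2-deletion rescue, beside 1.25% and 0.251% of genes. The 1 was ATP5PF, a peripheral stalk subunit of complex V, at -0.29 ± 0.07 on the log2 scale (limma adjusted p = 0.0276), chosen after its value was seen. That call was not kept in every fit that left out a library. The design therefore bounds member differences between the transgenes rather than showing that they act alike.

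The experiments share no library, so their rescue comparisons could be set side by side. Of the 61 members lower in the knockout than in the rescue of the first experiment and the 35 higher in the WT rescue than in the knockout of the second, 31 were the same genes, which is 50.8% and 88.6% of each list. Over all genes, 2927 were shared of 4576 and 4715, or 64% and 62.1%. These lists came from 87 members and 16369 genes present in both comparisons. The first list thus already held most of the members but a minority of all genes. For that reason the 88.6% of the members cannot be set directly against the 62.1% of all genes. The size of the rescue effect differed between the experiments for some members, as for many other genes. A test of the difference between deposited fold changes called 7 members higher and 14 lower in the second experiment, beside 20.3% and 17.0% of genes. Neither count was above the share of all genes. Limma on RPM called 6 and 47, beside 16.8% and 34.2%, so that only the lower calls there were above that share. The 5 with the lowest p were NDUFAF2, ATP5IF1, NDUFB1, NDUFB9 and NDUFAB1. NDUFAF2 rose by 1.26 in the second and 0.42 in the first experiment, in the authors' deposited tables, a difference of 0.85 ± 0.15 (SE; adjusted p = 2.83e-07). ATP5IF1 and NDUFB1 changed sign between the authors' deposited tables: ATP5IF1 was at -0.65 in the second against 0.36 in the first, and NDUFB1 at -0.75 against 0.59. The level of the transgene differed between the experiments, as given above, and its part in these differences was not tested.

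Arsenite lowered 12 members in knockout cells, 9 in the WT rescue and 0 in the NTF2-deletion rescue. Of 87 members in knockout cells, those 12 fell and 0 rose after 2 h in the authors' deposited table, beside 10.9% and 8.56% of all genes, so the count of calls was close to the background. The median of the members was nevertheless -0.18 against 0.00 for all genes, and both arsenite libraries lay under both untreated ones for 58 of the members, beside 32.6% of all genes. The WT rescue had 9 lower and 1 higher of 88 (background 12.2% and 8.18%; median -0.06) in the authors' deposited table, and the NTF2-deletion rescue had 0 lower and 1 higher of 87 (6.14% and 2.43%; median -0.01). On RPM limma called 44 members lower in the knockout, beside 20.3% of genes, or 27 without 1 of its arsenite libraries (b). The members called lower in the deposited tables included 5 of complex V in the knockout and 4 in the WT rescue.

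ATP5F1A was at 5283 and 5611 normalised reads in untreated knockout cells and at 3826 and 3764 with arsenite. It was at 5539.7 and 5205 in the WT rescue and 4844 and 4852 with arsenite, and at 5949 and 5569 in the NTF2-deletion rescue and 5411 and 5366 with arsenite. Arsenite libraries lay under the untreated ones in all 3 cell groups, by most in the knockout. Each group taken alone, this held for 32.6% of all genes in the knockout, 26.2% in the WT rescue and 26.1% in the NTF2-deletion rescue. For ATP5F1A the authors' deposited tables gave -0.50 ± 0.07 in the knockout, -0.16 ± 0.04 in the WT rescue and -0.09 ± 0.05, not called, in the NTF2-deletion rescue. ATP5F1A was the only member whose response was called different from that of the knockout: the difference was 0.34 ± 0.08 (SE; adjusted p = 0.000679) for the WT rescue and 0.41 ± 0.08 (adjusted p = 3.18e-05) for the NTF2-deletion rescue. Over all genes, 1.82% were called higher and 2.68% lower in the first of these tests and 4.04% and 3.08% in the second. On RPM, limma called 7 members in the first, beside 6.14% of genes, and 16 in the second, beside 8.81%, all less negative than in the knockout and ATP5F1A among them. Without 1 library at a time these counts ran from 2 to 13 and from 9 to 18, and the libraries behind the extremes are given with the alternatives after the report. Responses were less negative than in the knockout for 74 of 87 members in the WT rescue and 76 in the NTF2-deletion rescue; all of these values share the knockout libraries. No member's arsenite response differed between the rescues by this test (0.101% and 0.227% of genes called; 1 member at an unadjusted p under 0.05, ATP5MC2 at -0.20).

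ATP5MC1, a gene for subunit c, was at 696 and 744 normalised reads in the knockout and 466 and 501 with arsenite, and at 800.2 and 762 in the WT rescue and 614 and 569.6 with arsenite. NDUFB11, an accessory subunit of complex I, went from 862 and 982 to 668 and 581 in the knockout and from 746 and 828 to 658 and 667 in the WT rescue. UQCRC1, a core subunit of complex III, went from 2037 and 2388 to 1663 and 1521, and from 2191 and 2109 to 1875 and 1843. Treated and untreated libraries of these 3 genes did not overlap in either cell group. Over all genes, both treated libraries lay under both untreated ones for 32.6% in the knockout and 26.2% in the WT rescue. The same libraries gave the calls below, so the lack of overlap adds no separate support. In the authors' deposited tables, knockout and WT rescue, ATP5MC1 fell by 0.53 ± 0.13 and 0.39 ± 0.08, NDUFB11 by 0.53 ± 0.12 and 0.25 ± 0.08 and UQCRC1 by 0.45 ± 0.10 and 0.22 ± 0.05 on the log2 scale. In the NTF2-deletion rescue they were at -0.22, -0.10 and -0.13 in the authors' deposited table, none of them called. The members that rose were COX6A1, the ubiquitous isoform of its complex IV subunit, at 0.32 ± 0.09 in the WT rescue, and NDUFB9 at 0.12 ± 0.04 in the NTF2-deletion rescue, in the authors' deposited tables.

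**Figure D4:**
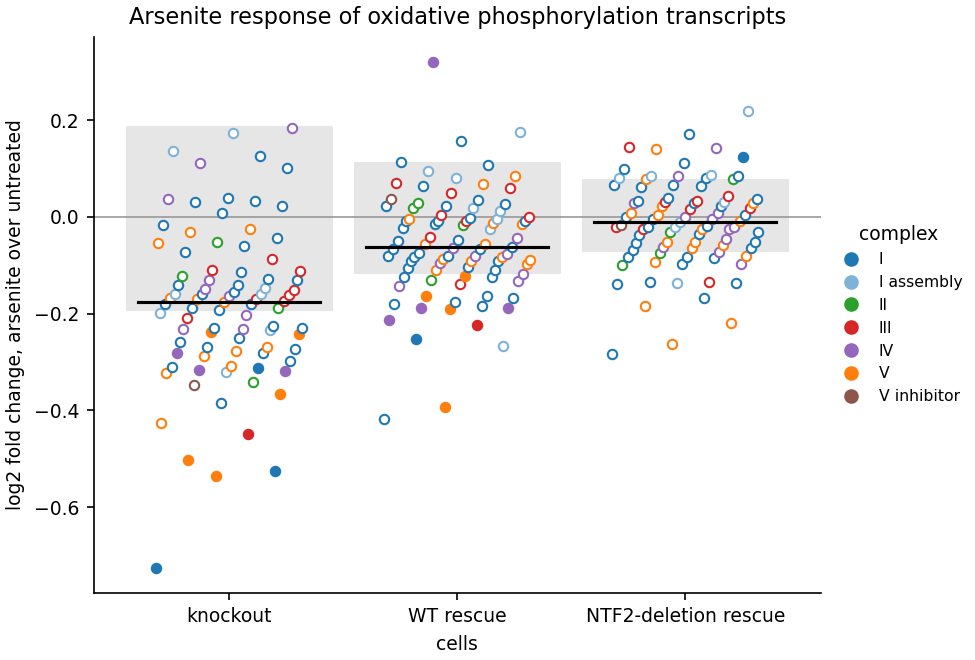
Log2 fold change with arsenite of every member in knockout cells, the WT rescue and the NTF2-deletion rescue (y axis, from the authors' deposited tables). Filled points were called, black bars are member medians (-0.18, -0.06 and -0.01) and grey bands the quartiles of all genes; ATP5F1A is at -0.50, -0.16 and -0.09.

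With arsenite, each rescue was deposited only against the untreated knockout, so its values combine rescue and stress. In the authors' deposited tables, 37 of 87 members were higher and 5 lower for the WT rescue (background 32.0% and 24.4%; median 0.27), and 43 and 4 of 87 for the NTF2-deletion rescue (30.0% and 24.3%; 0.29). Genes with a mean of at least 100 normalised reads had medians of 0.22 and 0.19 there. On RPM limma called 24 higher and 28 lower (27.5% and 43.7% of genes), and 31 and 24 (25.8% and 44.4%). NDUFAF4, NDUFAF2 and SDHB were again the highest, at 1.58, 1.32 and 1.02 with the WT transgene and 1.61, 1.41 and 1.08 with the NTF2 deletion in the authors' deposited tables. Compared with the arsenite-treated knockout, which is the matched control, limma on RPM called 36 members higher and 10 lower in the WT rescue, beside 27.0% and 43.5% of genes. It called 52 and 4 in the NTF2-deletion rescue, beside 26.2% and 44.5%.

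Between the knockout and the other groups, the summed reads of nuclear and mitochondrially encoded subunits went in different directions, most clearly in the first experiment. From wild type to the first rescue both sums were higher. The members took 0.569% and 0.568% of gene reads in the knockout of the first experiment, 0.597% and 0.591% in wild type and 0.69% and 0.703% in the rescue. The 13 subunits encoded by mitochondrial DNA took 9.64% and 9.37% in that knockout, 6.12% and 6.46% in wild type and 7.14% and 6.62% in the rescue. The knockout was thus lowest for the nuclear genes and highest for the mitochondrial ones, with no overlap between groups. In the second experiment the members took 0.518% and 0.539% in the untreated knockout, 0.546% and 0.544% in the WT rescue and 0.563% and 0.562% in the NTF2-deletion rescue. Arsenite brought these to 0.463% and 0.446%, 0.523% and 0.524%, and 0.557% and 0.558%. The untreated WT rescue lay above the untreated knockout by less than the knockout libraries differed from each other. The mitochondrially encoded subunits stood at 8.47% and 7.79% in the untreated knockout and 9.57% and 9.87% with arsenite, against 5.83% to 7.43% in the rescue libraries. Shares of 1 library sum to a whole, so a gene set can lose share when others gain.

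**Figure D5:**
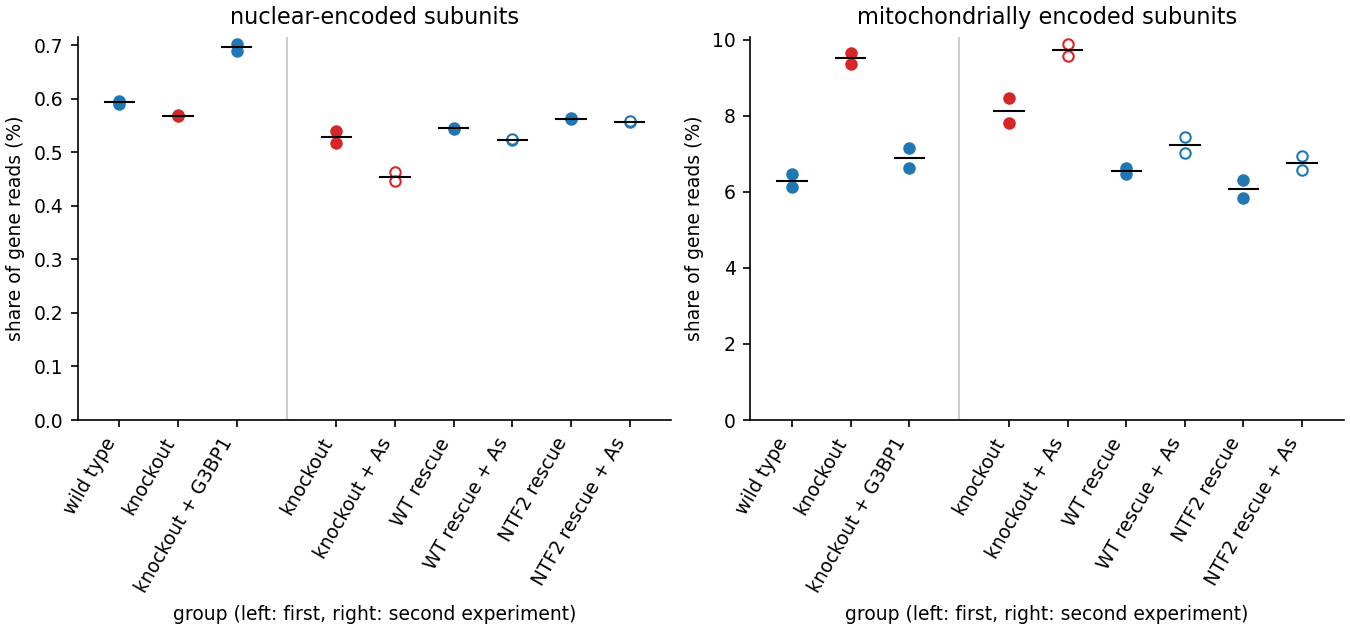
Share of gene reads (%) taken by the nuclear-encoded members and by the 13 mitochondrially encoded subunits in each U2OS library (1 point each; red, knockout; blue, other groups; open, arsenite). Untreated knockout libraries lie under the other untreated libraries for the nuclear-encoded members, and knockout libraries lie above all others for the mitochondrially encoded subunits, in each experiment.

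By gene, 12 of the 13 mitochondrially encoded subunits were higher in the knockout than in wild type, and MT-ND6 was lower, in the authors' deposited table (median 0.73). The same counts held against the G3BP1 rescue (median 0.45). Wild type against that rescue had 7 lower and 1 higher (median -0.19). In the second experiment the WT rescue had 4 higher and 4 lower (median -0.07) and the NTF2-deletion rescue 2 and 5 (-0.11) in the authors' deposited tables. Arsenite raised 8 of 13 in the knockout (median 0.29; 8.56% of all genes), 6 in the WT rescue (0.15; 8.18%) and 5 in the NTF2-deletion rescue (0.13; 2.43%), with 1 lower in each, in the authors' deposited tables.

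Other nuclear genes of mitochondrial metabolism, from lists chosen by symbol, were counted in the same tables. Of all genes, 23.7% were lower in the knockout than in the first rescue, and 28.8% (WT) and 28.5% (NTF2 deletion) were higher in the rescues of the second experiment; on RPM the latter fold changes were lower by the shifts given above, so that these rises rest in part on the authors' scaling. Cytochrome c (CYCS), which carries electrons from complex III to complex IV, and cytochrome c1 (CYC1), a complex III subunit whose symbol lies outside the rule used here, were both lower in the knockout than in the first rescue and both higher in each rescue of the second experiment, where CYCS was at 1.31 and 1.40 in the authors' deposited tables. The 13 enzymes of the TCA cycle, which feeds complexes I and II, had 13 lower in the knockout than in the first rescue in the authors' deposited table (median -0.53). In the second experiment 11 of the 13 were higher in each rescue in the authors' deposited tables (0.43 and 0.47). Of 16 subunits of the import machinery, 15 were lower in that knockout, and 13 and 14 were higher in the rescues, in the authors' deposited tables. The outer membrane channel TOMM40 was at -0.62 ± 0.06 in the first and 1.33 ± 0.07 with the WT rescue there. Of 12 complex IV assembly factors, 3 were lower in the knockout and 4 higher in each rescue in the authors' deposited tables, shares near those of all genes. Of 11 regulators of mitochondrial biogenesis 7 were lower in the knockout of the first experiment and 8 higher in each rescue of the second, in the authors' deposited tables (rescue medians 0.94 and 0.90). Of 17 enzymes of glycolysis, which runs in the cytosol, 14 were lower in the knockout than in the first rescue, 14 were higher in each rescue of the second and 1 was lower with the NTF2 deletion, in the authors' deposited tables.

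Among isoforms, COX6B2, the testis isoform of its complex IV subunit, passed the minimum of 10 reads only in the first experiment and was not called against wild type there (adjusted p = 0.0503 in the authors' deposited table), at 36.9 and 36.6 normalised reads in wild type, 12.4 and 12.9 in the knockout and 7.55 and 17.1 in the rescue. Its ubiquitous counterpart COX6B1 was at 4001 and 3820.3, 3138 and 3054, and 4421 and 4715. COX6B1 was lower in the knockout than in either other group in the authors' deposited tables, at -0.34 ± 0.07 against wild type and -0.57 ± 0.06 against the rescue. Of the subunit c genes, which differ only in the leader that directs import, ATP5MC1 was at -0.47, ATP5MC2 at 0.20 and ATP5MC3 at -0.10, knockout over wild type, in the authors' deposited table; the last was not called. The genes of this identical protein therefore did not move together. NDUFA4, a subunit associated with complex IV, rose by 0.27 ± 0.07 against wild type in the authors' deposited table. COX6A1, at 0.21 ± 0.10, and COX7A2, at -0.13 ± 0.07, were not called in that deposited table.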

How the data were processed

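RNA was poly-A selected with a strand-preserving kit, per the labels' protocols; whether counting used strand, the genome build and the annotation are not given in the sources used here. The submitters' processing notes name STAR (1.5.3 and 2.7.0f) and DESeq2 (2.11.40.6). The 11 gene tables deposited by the authors give base means (a signal, the mean normalised reads of a gene over the compared libraries), log2 fold changes with standard errors on the log2 scale, Wald statistics (a score), and p-values and adjusted p-values. These names come from the headers of the second experiment's tables; the others have no header and were read in the same column order, which their values fit. The series has 72 samples, of which the 24 in these tables were used; 4 summary lines per table that name no gene were left out. A member or gene was counted at a base mean of at least 10 and called at the authors' adjusted p under 0.05. Members, gene lists and tests were chosen with earlier results of these data known.

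Differences between 2 deposited fold changes were divided by their joint standard error and adjusted by Benjamini-Hochberg over all genes tested (5 tests). Since each table averages a different set of libraries, whole reads per U2OS library were solved from the base means: they gave every base mean of all 38466 and 38909 genes of the experiments to a relative 1e-11, and the table left out for 17945 of 17945 genes. Libraries solved this way carry a group but no replicate number; FLAG-G3BP1 libraries could not be solved. Normalised reads use size factors over all libraries of an experiment. As alternatives, limma (3.58.1, R 4.3.3, trend) was fitted on log2(RPM + 1), with RPM the reads per 1000000 gene reads, all groups of an experiment together, over genes with a mean of at least 10 reads; other thresholds, centring and left-out libraries were also tried. Limma and the difference test were run on simulated data with 200 genes changed. For the WT rescue against the knockout, limma recovered 100% of 2-fold and 68% of 1.41-fold changes among 16705 genes, with 7.69% of its calls false. That simulation gave all genes a single dispersion, and in the real comparison 69% of genes were called. The difference of arsenite responses, WT rescue minus knockout, recovered 74% of 2-fold differences among 15648 genes, with 7.5% false. Its noise was drawn from the same standard errors that the test divides by. These rates describe the simulated settings only and do not check the error rates in these data. Named genes were fixed core subunits, isoforms, the 3 highest and 3 lowest called members of each table with a base mean of at least 100, and up to 5 members of each difference test. Promoters come from RefSeq (GRCh38.p14). Python 3.11.15, pandas 2.3.3, numpy 2.4.6, scipy 1.17.1, sympy 1.14.0 and matplotlib 3.10.9 were used. Fold changes of low genes in the deposited tables are smaller than the ratios of normalised reads, as with shrinkage. The depth of the FLAG-G3BP1 libraries is not given in the sources used here.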

Additional observations from a re-analysis of the deposited data

Results flagged for a closer look

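Responses to arsenite differed between cell groups for 1 member in the tests on the authors' deposited tables. ATP5F1A, the alpha subunit of ATP synthase, fell less with the NTF2-deletion rescue than in the knockout, by 0.408 on the log2 scale, and less with the WT rescue, by 0.338. Both tests share the knockout libraries.

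The effect of putting G3BP1 back differed between the second and the first U2OS experiment for 21 members, of which the 5 with the lowest p are given. Over all genes, 20.3% were called higher and 17.0% lower in the same test, shares that the members did not exceed. The differences, WT rescue over knockout in the second minus G3BP1 rescue over knockout in the first, were 0.848 for NDUFAF2, -1.02 for ATP5IF1, -1.34 for NDUFB1, 0.30 for NDUFB9 and 0.582 for NDUFAB1. Experiment, transgene level and sequencing depth differ together between the experiments and cannot be told apart.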

How the results depend on the processing

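No paired analysis was possible because the libraries solved from the deposited tables carry no replicate number and the tables hold no library columns. Dividing each Wald statistic by the spread of that statistic over all genes (1.07 to 7.07) counts only genes far out in a table's own distribution. Under it, members called higher fell to 0 in the FLAG-G3BP1 IP, 1 and 2 in the WT and NTF2-deletion rescues, 0 and 1 in these rescues with arsenite and 0 in the arsenite response of the NTF2-deletion rescue. Members called lower came to 5, 15 and 11 in the first experiment (knockout over wild type, knockout over rescue, wild type over rescue) and 2 in the arsenite responses of the knockout and of the WT rescue. For centring, the median over genes with a mean of at least 100 normalised reads was subtracted (0.18 in the WT rescue, 0.22 with arsenite). It gave 22 higher in the WT rescue, 22 with arsenite and 0 in the arsenite response of the NTF2-deletion rescue. Centring also gave 28 lower in the comparison of experiments. Limma on RPM gave 44 lower in the knockout with arsenite, 0 higher in the NTF2-deletion response, 24 higher in the WT rescue with arsenite, 7 and 16 in the differences of arsenite response (WT and NTF2 deletion minus knockout) and 47 lower between experiments. An adjusted p under 0.01 gave 0 for the NTF2-deletion response and 7 between experiments, and adjusting again gave 0 for the former. In limma ATP5MC2 turned to -0.0198 and -0.00218 (WT and NTF2-deletion rescue) and UQCRQ to -0.0126. Of 149 called gene values, 123 lost their call on the spread-scaled statistic, 18 on centring and 22 at 0.01. Limma covered only the U2OS values among them, of which 113 kept their call, 11 lost it and 3 turned in sign.

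Leaving out each library in limma, where the lone library is assumed to vary like the others, gave 36 to 43 lower for knockout over wild type, 57 to 63 for knockout over rescue, 45 to 53 for wild type over rescue, 21 to 28 and 25 to 33 higher in the WT and NTF2-deletion rescues, and 20 to 25 and 26 to 32 with arsenite. The arsenite responses gave 27 to 43 lower in the knockout, 1 to 9 lower in the WT rescue and 0 to 1 higher in the NTF2-deletion rescue. The differences gave 2 to 13 (WT minus knockout), 9 to 18 (NTF2 deletion minus knockout), 40 to 47 lower between experiments, and 0 to 0 between the rescues. The arsenite count of the knockout went from 44 to 27 without its arsenite library b. That of the WT rescue went from 8 to 2 and 4 without either untreated library and to 1 and 2 without either treated one. The WT minus knockout count went from 7 to 13 and 4 without knockout libraries a and b, to 3 without either WT rescue library, to 2 and 3 without either treated one and to 4 without either treated NTF2-deletion library. The NTF2-deletion minus knockout count went from 16 to 9 without knockout library b, to 10 without either untreated NTF2-deletion library and to 9 without either treated one. With 2 libraries a group, a p-value rests on few degrees of freedom, and small members such as NDUFA13 and SDHA are limited by depth.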
